A study of Arabidopsis thaliana with 6 samples.

Results

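Described here are 49 Arabidopsis genes of the cell cycle, DNA replication and leaf growth, out of 36796 genes in the count table. They were chosen by known function and not by a cut on measured levels, but with earlier results of these data known. They fall into 9 genes of G1 and S entry, 11 genes of S phase and replication, 21 genes of G2 and mitosis, 5 inhibitors of cyclin-dependent kinases (CDKs) and 3 regulators of leaf growth. All 49 were matched by locus identifier to the RefSeq annotation of the TAIR10.1 build, and all 49 passed the filter on low counts. RNA was sequenced from whole rosettes harvested at 21 days of age, of the wild type and of *ref4-3*, both in the Col-0 ecotype, with 3 libraries per genotype. Each library was made from polyadenylated RNA of 5 pooled plants that had not yet bolted, collected 6 h after lights-on in a cycle of 16 h light and 8 h dark. The *ref4-3* allele is a single base change in *MED5b* (AT2G48110), whose product belongs to the Mediator tail, the part of the Mediator coactivator complex that contacts transcription factors. The comparison asks whether genes of particular cell cycle phases differ in transcript level between the 2 genotypes.

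Progress through the plant cell cycle is driven by CDKs bound to cyclins. D-type cyclins with CDKA;1 free E2F factors from their repressor at the entry into S phase, replication then needs the MCM helicase and the PCNA clamp, and B-type cyclins with the plant-specific CDKB kinases carry cells through mitosis. In a rosette many of these genes are transcribed mainly in the shoot apex, in young leaves and in the stomatal lineage, while older leaf cells have left the mitotic cycle and many of them re-replicate their DNA without dividing, a process called endoreduplication. In RNA from whole rosettes, fewer dividing cells and less RNA per dividing cell cannot be told apart.

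Total counts ranged from 26060005 to 32879414 per library, so that the floor of 3 counts corresponded to 0.0912 to 0.115 CPM, the count per 1000000 mapped counts. Wild-type replicate 2 had counts on 27913 genes and the other 5 libraries on 32015 to 34884. Organelle genes took 1.31% to 4.94% of counts. *MED5b* transcript, which a point mutation need not alter, had log2 fold change -0.31 ± 0.16 (SE) and was not called (edgeR adjusted p = 0.202). Rosette tissue was checked through leaf mesophyll markers, whose summed level was 9753 to 21269 CPM in the 6 libraries. Nothing in the labels says that the 3 libraries of a genotype came from separate plantings, so p-values measure the spread between these libraries.

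The upstream sequences of 4 B-type cyclin genes and 5 MCM genes are shown because they hold the short motifs whose shares by class are given below. Each is an 80-base stretch from the 250 bases before the annotated start of the gene in TAIR10.1 (RefSeq), read 5′ to 3′ on the strand of the gene. In the cyclin genes, capitals mark AACGG or its reverse complement CCGTT, the core of the mitosis-specific activator (MSA) element, which MYB3R factors are known to read.
CYCB1;1, chr4:17624309-17624388, minus strand: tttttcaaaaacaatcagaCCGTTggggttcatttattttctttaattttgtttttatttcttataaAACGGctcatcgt
CYCB1;2, chr5:1861704-1861783, minus strand: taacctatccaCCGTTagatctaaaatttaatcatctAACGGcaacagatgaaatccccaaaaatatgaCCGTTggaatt
CYCB1;3, chr3:3627274-3627353, minus strand: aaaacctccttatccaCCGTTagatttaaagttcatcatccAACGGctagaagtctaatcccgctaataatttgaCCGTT
CYCB2;3, chr1:7137866-7137945, minus strand: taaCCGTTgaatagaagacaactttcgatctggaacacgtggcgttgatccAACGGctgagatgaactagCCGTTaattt

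In the MCM genes, capitals mark the E2F site, counted as TTTCCCGC, TTTGGCGC, TTTCGCGC or TTTGCCGC on either strand.
MCM2, chr1:16970134-16970213, plus strand: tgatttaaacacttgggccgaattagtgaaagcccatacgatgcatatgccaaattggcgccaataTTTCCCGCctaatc
MCM3, chr5:18773800-18773879, minus strand: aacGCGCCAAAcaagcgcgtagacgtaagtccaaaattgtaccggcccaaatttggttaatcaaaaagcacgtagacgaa
MCM4, chr2:7130730-7130809, minus strand: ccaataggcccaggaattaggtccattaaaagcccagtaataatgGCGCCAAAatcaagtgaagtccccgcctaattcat
MCM5, chr2:3527501-3527580, minus strand: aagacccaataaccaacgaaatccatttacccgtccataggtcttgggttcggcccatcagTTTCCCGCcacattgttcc
MCM6, chr5:18010668-18010747, minus strand: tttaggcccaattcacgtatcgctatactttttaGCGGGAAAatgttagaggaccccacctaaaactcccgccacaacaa

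The share of genes with each motif differed between the classes. An MSA core lay within 250 bases upstream of 12 of the 21 G2 and mitosis genes (57.1%) and of 20.6% of the 27443 protein-coding genes. At least 3 cores lay upstream of 6 of the 21 (28.6%), against 0.736% of all protein-coding genes, and all 6 were B-type cyclin genes. An E2F site lay upstream of 5 of the 11 S phase genes (45.5%), of none of the G2 and mitosis genes and of 1.41% of all protein-coding genes. MSA cores were also upstream of 2 of the 9 G1 and S entry genes, 2 of the 11 S phase genes and 2 of the 5 CDK inhibitors, and an E2F site was upstream of 1 G1 and S entry gene, *CYCD3;3*. No gene of the 49 held both motifs. A telo box (AAACCCTA, both strands) was present upstream of 4.08% of the 49 and 4.49% of all protein-coding genes, and a G-box (CACGTG) upstream of 6.12% and 6.49%. These matches describe letters in a window and do not show binding.

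**Figure D1:**
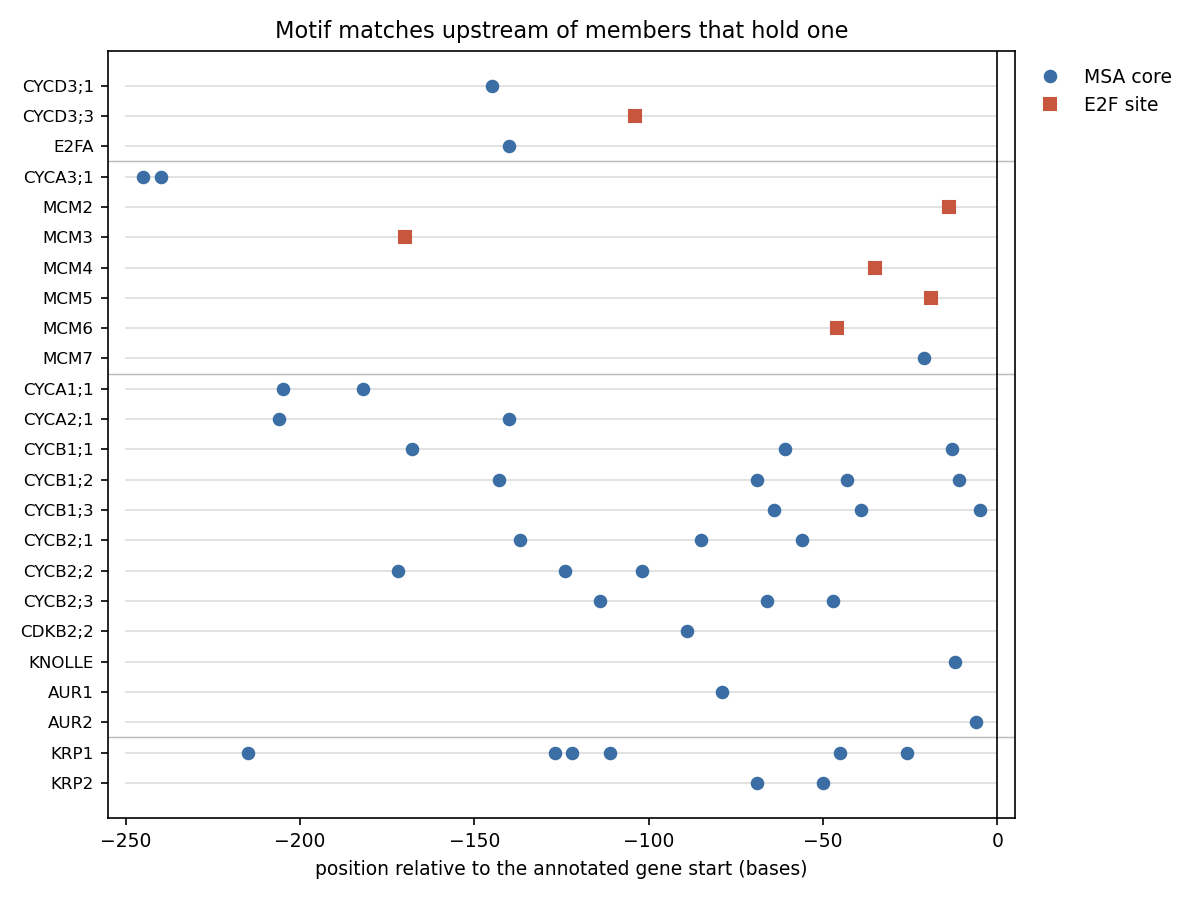
Motif matches (points) by position relative to the annotated gene start, in bases, for the members that hold an MSA core (blue circles) or an E2F site (red squares), grouped by class from G1 and S entry at the top to CDK inhibitors at the bottom. The *MCM2* to *MCM6* genes each carry 1 E2F site, and the B-type cyclin genes shown carry 3 or 4 MSA cores.

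Of the 49 genes, 7 exhibited decreased and 2 increased transcript levels in *ref4-3* plants (edgeR quasi-likelihood test, two-sided, adjusted p under 0.05 over all 23050 genes tested). The 7 were the G1 genes *CDKA;1* and *CYCD1;1*, the S phase genes *CYCA3;2* and *PCNA2*, and the mitotic genes *CYCB1;3*, *CYCB2;3* and *CDKB2;1*, and the 2 were the growth regulators *GRF5* and *ANT*. The share of the 49 that decreased was 14.3%, beside 11.9% of all genes tested, and the share that increased was 4.08%, beside 8.52%. Both shares lay near those of all genes. None of the 49 passed the stricter rule of an adjusted p under 0.05 with a change of more than 2-fold, which 9.72% of all genes passed. The calls rest on all 6 libraries. Without *ref4-3* replicate 3 the count was 0 lower and 0 higher, without wild-type replicate 2 it was 2 and 0, and the other 4 omissions gave 1 to 5 lower and 0 to 2 higher. With library totals in place of TMM factors, 0 were lower and 5 higher. Over all genes tested, that scaling gave 1518 lower and 4342 higher calls, in place of 2737 and 1964. It moved the median log2 fold change of the tested genes from 0.014 to 0.26. Changes below are therefore best read against that median.

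**Figure D2:**
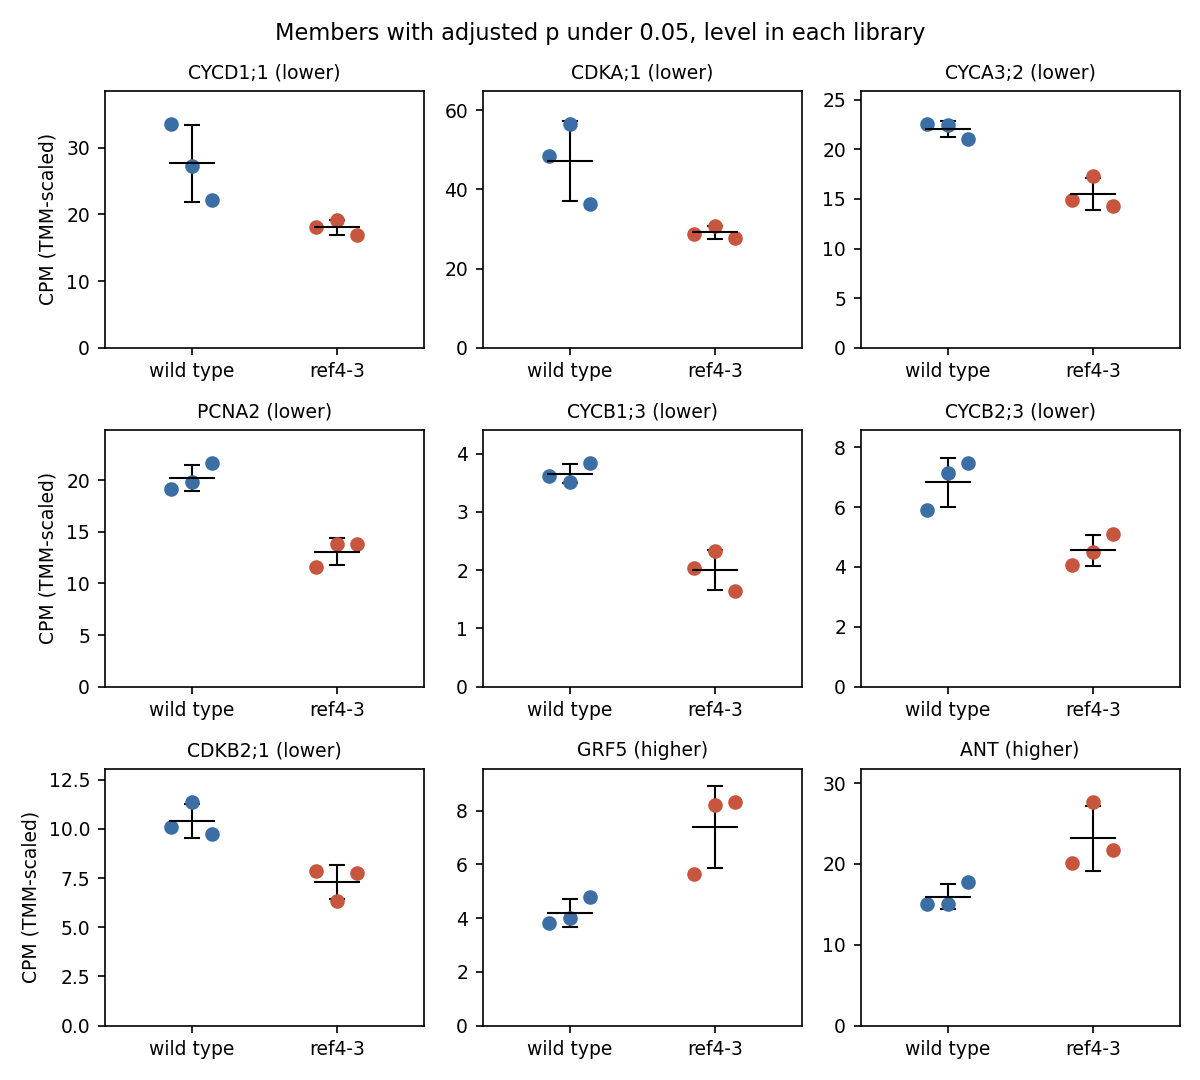
Level of each of the 9 genes with an adjusted p under 0.05 in each library (points), in CPM scaled by TMM factors, with the mean and SD of 3 libraries per genotype (black). In every panel the 3 *ref4-3* libraries lie on 1 side of the 3 wild-type libraries. The genes were selected by the test on these same libraries, so this separation is no further support. Of all genes tested, 22.7% lay wholly lower and 22.5% wholly higher in *ref4-3* plants.

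*CDKA;1* (AT3G48750, chromosome 3, 18071454 to 18074641, plus strand) codes for the CDK that acts at both the G1 to S and the G2 to M transition, and over all 6 libraries it had the highest mean level per length of the G1 and S entry genes, although in *ref4-3* plants *CYCD3;2* had 19.5 RPKM against its 19.4 RPKM (CPM per kilobase of exon). Its level was 48.4, 56.5 and 36.4 CPM in wild-type replicates 1 to 3 and 28.8, 30.9 and 27.7 CPM in *ref4-3* replicates 1 to 3. The wild-type libraries were spread widely, but the lowest of them was above the highest *ref4-3* library. Its log2 fold change was -0.69 ± 0.17 (SE; edgeR adjusted p = 0.0284), a level 61.8% of wild type. The D-type cyclin *CYCD1;1* (AT1G70210) was measured at 33.6, 27.3 and 22.1 CPM in wild-type plants and at 18.1, 19.1 and 16.95 CPM in *ref4-3* plants. Its groups did not overlap either, and the decrease was -0.62 ± 0.16 on the log2 scale (edgeR adjusted p = 0.0376). Both calls were lost in 5 of the 6 fits that left out 1 library, with adjusted p up to 0.113 for the kinase and 0.135 for the cyclin.

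The other 7 genes of G1 and S entry did not pass the test. The remaining D-type cyclins *CYCD2;1*, *CYCD3;1*, *CYCD3;2* and *CYCD3;3*, which link hormone and sugar signals to division, had log2 fold changes of -0.07 to 0.23. *E2FA*, an activator of S phase genes, had the most positive value of the class, 0.39 ± 0.13, with 5.70 to 6.07 CPM in wild-type and 7.55 to 7.96 CPM in *ref4-3* libraries (edgeR adjusted p = 0.0731). *E2FB*, a related activator, and *DEL1*, an atypical E2F that delays endoreduplication, had values of -0.08 and 0.0045. The level of *E2FA* per length was 0.814 ± 0.110 (SD, n = 3) times that of *E2FB* in wild-type plants and 1.12 ± 0.0863 times in *ref4-3* plants, with no overlap between the groups. The median log2 fold change of the 9 genes was 0.0045, close to the 0.014 of all tested genes.

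Among the S phase genes, *PCNA2* had the highest level per length and the smallest adjusted p of all 49. *PCNA2* (AT2G29570) codes for the sliding clamp that holds DNA polymerase on its template. It was measured at 19.2, 19.9 and 21.7 CPM in wild-type and at 11.6, 13.8 and 13.9 CPM in *ref4-3* replicates 1 to 3. The groups stood apart by more than the range within either, and the log2 fold change was -0.63 ± 0.13 (edgeR adjusted p = 0.0169). The call was lost without *ref4-3* replicate 2 (adjusted p = 0.0519, edgeR) and without *ref4-3* replicate 3 (0.0640). The gene on the opposite strand, *ENOC*, covers 23.6% of its exons and had a log2 fold change of -0.24 (edgeR adjusted p = 0.279). Its paralog *PCNA1* had a log2 fold change of -0.35 ± 0.12 that did not pass (edgeR adjusted p = 0.0761), although its groups did not overlap either. Per length, *PCNA2* was 1.42 ± 0.0889 (SD, n = 3) times as abundant as *PCNA1* in wild-type and 1.172 ± 0.115 times in *ref4-3* plants.

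*CYCA3;2* (AT1G47210), an A-type cyclin expressed around S phase, was measured at 22.6, 22.5 and 21.1 CPM in wild-type and at 14.9, 17.4 and 14.3 CPM in *ref4-3* libraries. The 3 wild-type values were close together and above all *ref4-3* values, and the log2 fold change was -0.51 ± 0.12 (edgeR adjusted p = 0.0279). In 4 of the 6 fits that left out 1 library this call was lost, with adjusted p up to 0.117. The related *CYCA3;1* had a value of 0.22 ± 0.18 and overlapping groups. The ratio of *CYCA3;2* to *CYCA3;1* per length was 3.42 ± 0.845 in wild-type and 1.995 ± 0.148 in *ref4-3* plants (SD, n = 3), without overlap. *CYCA3;2* had been called on these same libraries, so this separation is no further support.

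None of the 6 MCM helicase subunits passed the test, nor did *CDT1A*, which loads the helicase onto origins. The MCM subunits had similar levels per length, 4.96 to 8.66 RPKM in wild-type plants, and log2 fold changes from -0.26 ± 0.13 for *MCM3* to 0.30 ± 0.14 for *MCM4*. The groups did not overlap for *MCM3* and *MCM7*, both lower (33.3% of the 6, beside 22.7% of all genes tested). The 5 subunit genes with an E2F site upstream, printed above, had a median of -0.06, and the 6 other genes of the class, among them the clamp genes and *CYCA3;2*, had a median of -0.25. *CDT1A* had a value of 0.31 ± 0.16, with overlapping groups.

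The G2 and mitosis genes leaned in 1 direction by small amounts. Their log2 fold changes were below 0 in 18 of 21, with a median of -0.24, and 3 decreased by the test while none increased. The share that decreased was 14.3%, near the 11.9% of all genes tested. In 13 of the 21 (61.9%) every *ref4-3* library was below every wild-type library, beside 22.7% of all genes tested, and in 1 (4.76%) every *ref4-3* library was above, beside 22.5%. The exception was *CYCB1;1*. Relative to the median of all tested genes the class median was -0.26 with TMM factors, -0.26 with library totals and -0.26 without the filter on low counts, and 17 or 18 of the 21 genes were below that median in every alternative fit. Relative to 0, however, only 10 of 21 were below with library totals, where the class median was 0.00063.

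*CYCB1;3* (AT3G11520), a B1-type cyclin, had the most negative value of all 49 genes. Its level was 3.62, 3.51 and 3.84 CPM in wild-type and 2.03, 2.33 and 1.64 CPM in *ref4-3* replicates 1 to 3. The wild-type libraries differed little, all *ref4-3* libraries were below them, and the log2 fold change was -0.87 ± 0.20 (edgeR adjusted p = 0.0257), a level 54.8% of wild type. It kept its call in 3 of the 6 fits without 1 library, and adjusted p reached 0.0987 without *ref4-3* replicate 3. The upstream stretch printed above holds MSA cores 64, 39 and 5 bases before its start. *CYCB1;2* has cores at similar distances, 69, 43 and 11 bases, and a further 1 at 143, yet its log2 fold change was -0.22 ± 0.13 (edgeR adjusted p = 0.251). *CYCB1;1*, with cores 168, 61 and 13 bases upstream, had a value of 0.18 ± 0.16 (edgeR adjusted p = 0.442). Per length, *CYCB1;3* was 0.972 ± 0.0493 times as abundant as *CYCB1;1* in wild-type and 0.473 ± 0.103 times in *ref4-3* plants (SD, n = 3).

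*CYCB2;3* (AT1G20610), a B2-type cyclin, was measured at 5.90, 7.12 and 7.47 CPM in wild-type and at 4.07, 4.49 and 5.10 CPM in *ref4-3* libraries. The gap between the groups was narrow, from 5.10 to 5.90 CPM, and the log2 fold change was -0.58 ± 0.17 (edgeR adjusted p = 0.0481). Its transcript shares 97.3% identity with that of the neighbouring locus AT1G20590 over 29.0% of its length, so that reads of the 2 loci may have been split. Of the fits without 1 library only that without wild-type replicate 1 kept the call, and adjusted p reached 0.124 (edgeR). The other B-type cyclins, *CYCB1;4*, *CYCB2;1*, *CYCB2;2*, *CYCB2;4* and *CYCB3;1*, had values from -0.48 ± 0.16 to -0.04 ± 0.23 and did not pass. Of the 9 B-type cyclin genes, 8 were below the median of all tested genes with TMM factors, with library totals and without the filter, although only 5 of 9 were below 0 with library totals.

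*CDKB2;1* (AT1G76540), a kinase of G2 and mitosis, was measured at 10.09, 11.4 and 9.74 CPM in wild-type and at 7.87, 6.31 and 7.73 CPM in *ref4-3* replicates 1 to 3. No library of 1 genotype reached the range of the other, and the log2 fold change was -0.51 ± 0.15 (edgeR adjusted p = 0.0491). The call was lost in all 6 fits without 1 library, with adjusted p up to 0.139. Its paralog *CDKB2;2* had a value of -0.57 ± 0.19 that did not pass (edgeR adjusted p = 0.0659), and the ratio of *CDKB2;2* to its paralog per length overlapped between genotypes, 0.663 ± 0.107 in wild-type and 0.635 ± 0.0304 in *ref4-3* plants (SD, n = 3). The B1-type kinases *CDKB1;1* and *CDKB1;2* had values of -0.30 ± 0.18 and -0.24 ± 0.20. All 4 kinase genes were below the median of all tested genes with TMM factors, with library totals and without the filter. Relative to 0, 3 of 4 were below with library totals.

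Among the other mitotic genes, *AUR1* and *AUR2*, Aurora kinases of the spindle and cell plate, had values of -0.46 ± 0.16 and -0.21 ± 0.15, and *KNOLLE*, the syntaxin that fuses vesicles into the cell plate, had -0.17 ± 0.10. None of them passed. The groups did not overlap for any of the 3, all lower, which held for 22.7% of all genes tested. Genes on the opposite strand cover 36.9% of the exons of *AUR2* and 33.5% of those of *KNOLLE*. That of *AUR2* had a mean of only 0.279 CPM, and that of *KNOLLE*, *NPQ1*, a mean of 225 CPM. The strand setting of the counting is not given in the sources used here. *CYCA2;3*, a cyclin that restrains endoreduplication, had a value of -0.42 ± 0.13 (edgeR adjusted p = 0.0573), whereas *CYCA2;4* had 0.18 ± 0.19, *CYCA2;1* -0.18 ± 0.35 and *CYCA1;1* -0.11 ± 0.14. *CDC20.1*, an activator of the anaphase-promoting complex, had the highest level per length of the class. It was measured at 30.7, 27.5 and 32.7 CPM in wild-type and at 35.2, 34.9 and 31.5 CPM in *ref4-3* libraries, which overlapped (0.16 ± 0.11, edgeR adjusted p = 0.328). Its transcript is 97.0% identical to that of *CDC20.2* over 65.1% of its length, so that its count is uncertain. The median log2 fold change was -0.23 for the 12 genes with an MSA core and -0.29 for the 9 without, with 2 and 1 genes that decreased.

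**Figure D3:**
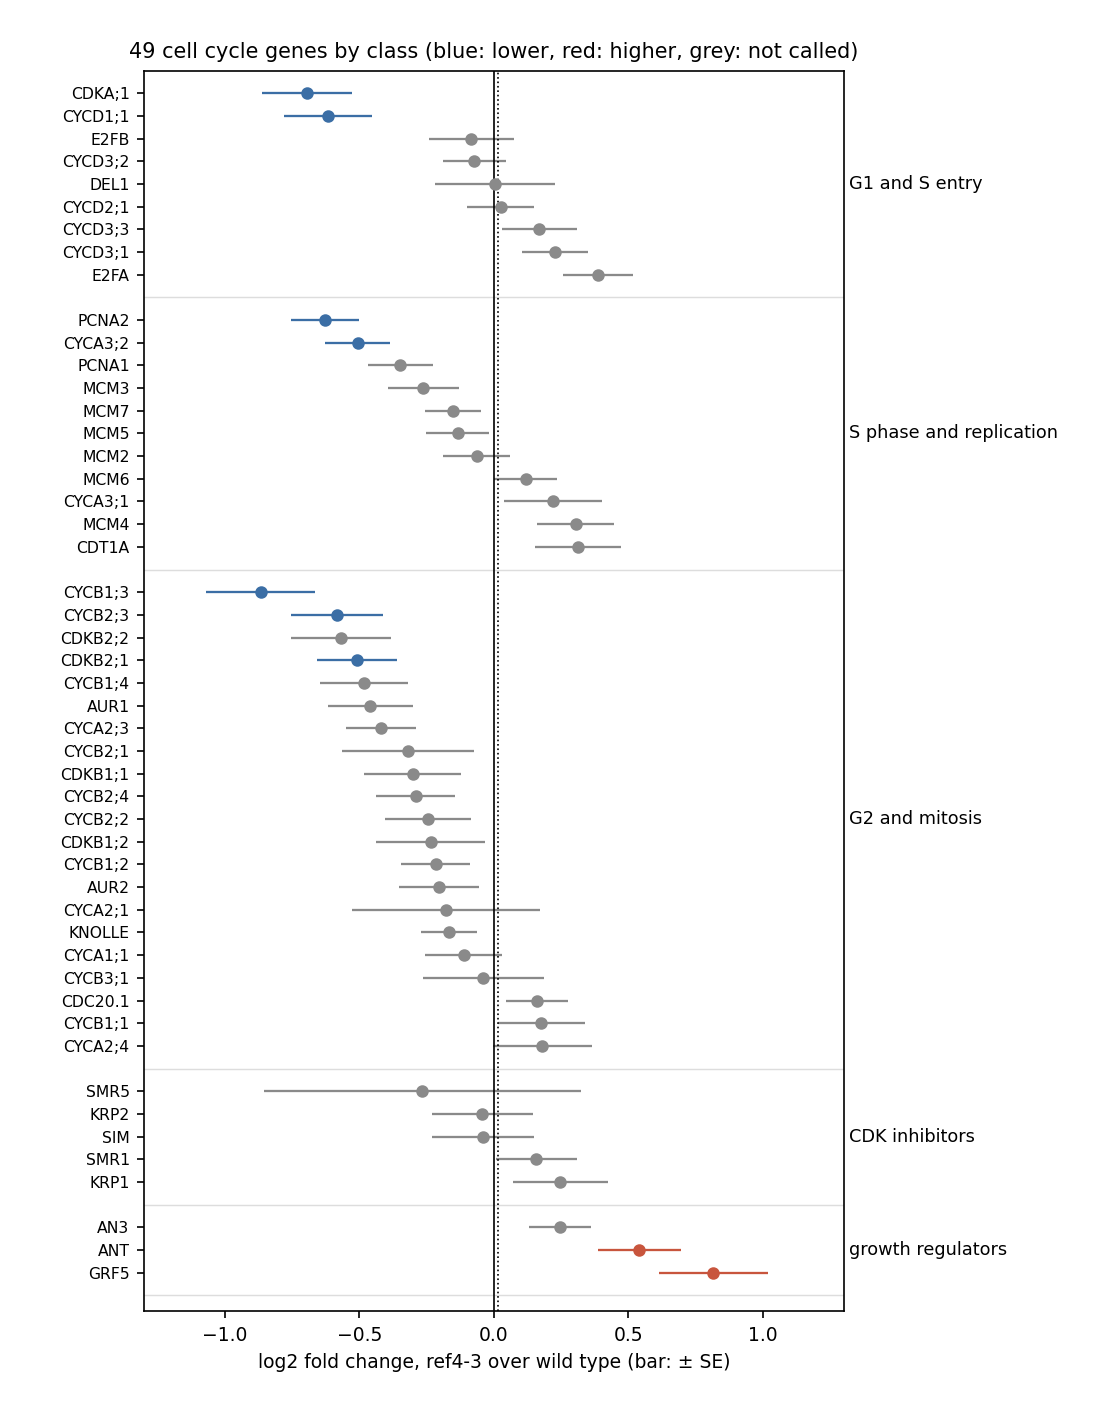
Log2 fold change of *ref4-3* over wild type for all 49 genes by class (points, bars ± SE, edgeR), with genes that decreased in blue, increased in red and not called in grey, and with the median of all tested genes as a dotted line. The G2 and mitosis genes lie mostly to the left of 0 with TMM factors, in 18 of 21, while with library totals 10 of 21 do.

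The CDK inhibitors did not differ detectably. All 5 had overlapping groups and adjusted p of at least 0.331 (edgeR). *SMR1*, a SIAMESE-related inhibitor that promotes large endoreduplicated cells, had the highest level per length of the class, with 21.8, 15.6 and 18.6 CPM in wild-type and 22.6, 20.4 and 19.5 CPM in *ref4-3* libraries. Its log2 fold change was 0.16 ± 0.15. *SMR5*, induced by DNA damage and oxidative stress, had the value farthest from 0, -0.27 ± 0.59, but it was measured at 0.349, 0.938 and 0.371 CPM in wild-type and at 0.581, 0.618 and 0.186 CPM in *ref4-3* libraries, and its direction turned to 0.33 without wild-type replicate 2. Its exons lie wholly within a gene on the opposite strand with a mean of 32.5 CPM, so that its count is uncertain. Opposite-strand genes also cover 45.4% of the exons of *SMR1* and 42.7% of those of *SIM*, but with means of only 0.0990 and 0.229 CPM. *KRP1*, *KRP2* and *SIM* had values of 0.25 ± 0.18, -0.04 ± 0.19 and -0.04 ± 0.19. *KRP1* and *KRP2*, like many mitotic genes, hold MSA cores upstream, 6 and 2 of them.

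The growth regulators lay on the other side. *GRF5*, a growth-regulating factor that sustains cell proliferation in young leaves, was measured at 3.81, 3.995 and 4.79 CPM in wild-type and at 5.64, 8.20 and 8.32 CPM in *ref4-3* replicates 1 to 3. *ref4-3* replicate 1 was nearest to the wild type, yet the groups did not overlap, and the log2 fold change was 0.82 ± 0.20 (edgeR adjusted p = 0.0313). *ANT*, an AP2-type transcription factor that prolongs organ growth, was measured at 15.01, 15.04 and 17.7 CPM in wild-type and at 20.104, 27.7 and 21.7 CPM in *ref4-3* plants. All *ref4-3* libraries were above all wild-type libraries, with a log2 fold change of 0.54 ± 0.16 (edgeR adjusted p = 0.0466). *AN3*, a coactivator that binds GRF proteins and had the highest wild-type level per length of the 3, was measured at 19.0, 19.2 and 22.4 CPM in wild-type and at 23.2, 24.8 and 23.8 CPM in *ref4-3* libraries, with 0.25 ± 0.12 (edgeR adjusted p = 0.158). In fits without 1 library the call for *GRF5* was kept in 2 of 6, that for *ANT* in 1 of 6, and adjusted p reached 0.121 and 0.134.

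The classes were also followed library by library. The median deviation of the 21 G2 and mitosis genes from their own means over 6 libraries was 0.09, 0.13 and 0.16 (log2 CPM) in wild-type and -0.14, -0.20 and -0.10 in *ref4-3* replicates 1 to 3. The groups did not overlap, and their means, 0.13 ± 0.04 and -0.15 ± 0.05 (SD, n = 3), differed by more than the spread within either. For the S phase genes the deviations were 0.08, -0.0028 and 0.08 in wild-type and -0.11, -0.03 and -0.10 in *ref4-3* libraries, also without overlap. For G1 and S entry and for the CDK inhibitors the genotypes overlapped, and for the inhibitors the difference of the library medians, 0.18, had the opposite sign to the median of the fold changes, -0.04. The growth regulators did not overlap and were higher in *ref4-3* plants. The median over all 23050 genes stayed between -0.0093 and 0.02.

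**Figure D4:**
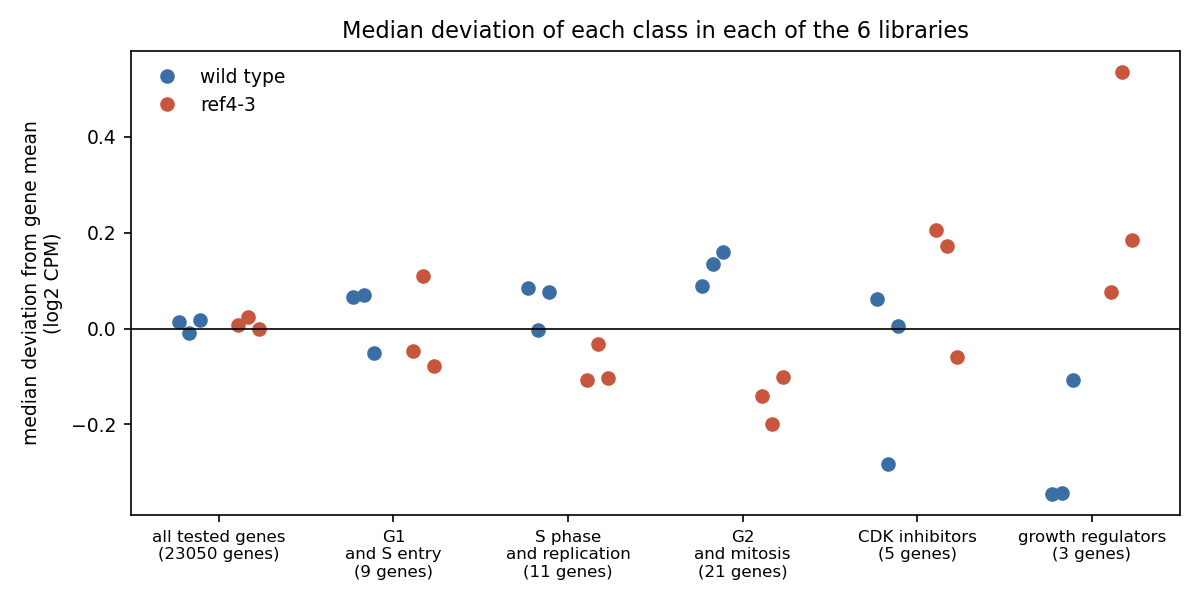
Median deviation of the genes of each class from their own mean over the 6 libraries, in log2 CPM with TMM factors, for each wild-type (blue) and *ref4-3* (red) library. The G2 and mitosis genes sit between 0.09 and 0.16 in wild-type and between -0.20 and -0.10 in *ref4-3* libraries, a distance measured against all genes since the class median is 0.00063 with library totals, where that of all genes is 0.26.

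Of 77 further cell cycle genes, 76 could be tested, and 5 decreased and 5 increased (6.58% each, below the 11.9% and 8.52% of all genes tested). The 19 of them in G2 and mitosis leaned less than the 21 above. Their median log2 fold change was -0.06, with 14 below 0, and 0 decreased and 1 (5.26%) increased. In 26.3% of the 19 every *ref4-3* library was below every wild-type library, beside 22.7% of all genes tested. In 10.5% every *ref4-3* library was above, beside 22.5%. The 17 tested in S phase and replication had a more negative median, -0.19, with 12 below 0. Of these 17, 1 (5.88%) decreased and 0 increased. In 29.4% of the 17 every *ref4-3* library was below every wild-type library, and in 5.88% every one was above. In S phase, *CDC6*, which loads the helicase together with CDT1, had 7.90, 8.58 and 10.2 CPM in wild-type and 4.13, 4.01 and 3.31 CPM in *ref4-3* libraries. Its log2 fold change of -1.22 ± 0.17 (edgeR adjusted p = 0.00604) held in all 6 fits without 1 library. *CKS2*, a small protein that docks CDKs to their substrates, decreased by 0.73 ± 0.14 on the log2 scale, from 16.3 to 21.3 CPM down to 10.7 to 11.9 CPM (edgeR adjusted p = 0.0147). *CYCB1;5* increased by 0.93 ± 0.18, against the direction of most B-type cyclins (edgeR adjusted p = 0.0157). Its transcript is 97.7% identical to that of *CYCB1;2* over 11.3% of its length. Without *ref4-3* replicate 3 the count for these genes was 2 lower and 0 higher, and with library totals it was 3 and 12.

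Among inhibitor genes outside the 49, *KRP7* increased by 1.46 ± 0.31 on the log2 scale, with 2.88 to 6.89 CPM in wild-type and 10.2 to 14.5 CPM in *ref4-3* libraries (edgeR adjusted p = 0.0194), and *KRP4* decreased by 0.50 ± 0.14 (edgeR adjusted p = 0.0426). The call for *KRP7* was also lost without *ref4-3* replicate 1 (adjusted p = 0.0518, edgeR), and that for *KRP4* in 5 of the 6 fits without 1 library. *KRP4* exons are covered to 38.7% by *CB5-B* on the opposite strand, which had a log2 fold change of -0.85 (edgeR adjusted p = 0.00952), so that the 2 cannot be told apart without strand. *SMR7*, named here after its values were seen because its mean was just under 1 CPM, increased by 1.79 ± 0.33, from 0.371 to 0.508 CPM up to 1.13 to 1.98 CPM (edgeR adjusted p = 0.0139).

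Of the 8 other GRF genes, 2 increased. *GRF2* increased by 0.94 ± 0.16 (edgeR adjusted p = 0.0111), with 5.90 to 6.35 CPM in wild-type and 9.73 to 13.9 CPM in *ref4-3* libraries. *GRF4* increased by 0.72 ± 0.14 (edgeR adjusted p = 0.0142). Of the 9 GRF genes measured, 3 increased (33.3%, beside 8.52% of all genes tested) and none decreased, but none of the 9 was called without *ref4-3* replicate 3. In the fit of all 6 libraries 8 had values above 0 with TMM factors, with library totals and without the filter. The exception was *GRF8*, at -0.49 ± 0.44. *ARGOS* and *DA1*, however, decreased. *ARGOS*, which promotes organ growth upstream of *ANT*, had 2.41, 2.50 and 3.05 CPM in wild-type and 0.610, 0.583 and 0.371 CPM in *ref4-3* libraries, a log2 fold change of -2.34 ± 0.28 (edgeR adjusted p = 0.00413) that held in all 6 fits without 1 library. *DA1*, a peptidase that limits the period of cell proliferation, had 23.8, 46.8 and 35.0 CPM in wild-type and 16.4, 16.3 and 16.7 CPM in *ref4-3* libraries (-1.10 ± 0.23, edgeR adjusted p = 0.0184), and this call was lost without any 1 of the *ref4-3* libraries (adjusted p up to 0.0771).

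Markers of tissues that hold dividing cells moved unevenly beside these genes. For comparison, 11.9% of all genes tested decreased and 8.52% increased. Of 6 shoot meristem markers, 1 (16.7%) decreased, *STM* (-0.59 ± 0.16, edgeR adjusted p = 0.0363). The other 5 did not pass, among them *WUS* and *CLV3* with values of 1.22 and 0.64. The sum of the 6 is set mainly by *CLV1* and *STM*, and the summed level was 61.0 to 72.1 CPM in wild-type and 48.5 to 62.0 CPM in *ref4-3* libraries. Of 7 stomatal lineage markers, *SPCH*, *TMM*, *EPF2*, *EPF1* and *BASL* increased (71.4%). The summed level of the 7 was 28.8 to 35.0 CPM in wild-type and 39.6 to 45.4 CPM in *ref4-3* libraries. *FAMA*, the highest of the 7 in level, went the other way, with 16.4 to 16.9 CPM in wild-type and 12.9 to 15.5 CPM in *ref4-3* libraries. Its value of -0.20 ± 0.12 did not pass (edgeR adjusted p = 0.251). *MUTE*, at 1.24 ± 0.43, did not pass either (edgeR adjusted p = 0.0756). Of 6 flower markers, *SEP3* decreased and *LFY* increased (16.7% each), with a summed level of 11.6 to 16.0 CPM in wild-type and 6.89 to 11.0 CPM in *ref4-3* libraries. Of 3 mesophyll markers *CAB3* decreased (33.3%), and *RBCS1A* did not pass (-0.58 ± 0.18, edgeR adjusted p = 0.0595). *CA1* had a value of 0.02 and overlapping groups. The sum of the 3 is set mainly by *RBCS1A* and *CAB3*. It did not overlap, at 16154 to 21269 CPM in wild-type against 9753 to 12460 CPM in *ref4-3* libraries. The sums of the 3 trichome markers, 8.16 to 9.76 CPM in wild-type and 12.4 to 15.2 CPM in *ref4-3* libraries, and of the 3 root markers, 3.01 to 4.17 CPM and 5.21 to 5.75 CPM, were higher in *ref4-3* plants, as were those of the 2 senescence markers, 10.4 to 15.8 CPM and 24.4 to 69.6 CPM. The root sum was raised mainly by *WOX5*, from a mean of 0.276 to 1.73 CPM, whereas *HB53* had a log2 fold change of -0.61. No marker was at 0 in any library, and the part of these tissues in the results for the cell cycle genes was not tested.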

How the data were processed

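Per the labels and the study's methods, read pairs were trimmed (fastp 0.23.2), aligned to TAIR10 (HISAT2 2.2.1) and sorted (SAMtools 1.17) by the authors, who deposited raw counts per gene, with no normalization and no pooling. The library kit was a directional one. How strand was set in the counting, and how multiply mapping reads were handled, is not given in the sources used here. In the present work, genes were kept by filterByExpr (minimum count 10, minimum total 15), scaled by TMM and tested with the quasi-likelihood method (two-sided) of edgeR 4.0.16 in R 4.3.3, with Benjamini-Hochberg adjustment over 23050 genes. A gene was called at an adjusted p under 0.05, and SEs came from the F statistic. CPM are scaled by TMM factors, logarithms use a prior count of 0.5, and RPKM is CPM per kilobase of exon. The test was checked on simulated counts. Floors of 3 counts reflect counting error alone, because reads copied by PCR are not separate molecules.

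Coordinates, exon lengths and sequences are those of TAIR10.1 (RefSeq), and BLAST+ 2.17.0 was used to search for similar transcripts. Of 84 further cell cycle genes listed, 77 were used, since the annotation pairs no symbol with 7 of the loci. The 49 genes and all gene lists were chosen with earlier results of these data known. Values in every library are given for genes with an adjusted p under 0.05, for the gene with the highest level per length and the gene with the value farthest from 0 of each class, and for *CDKA;1*. Further cell cycle genes were named at an adjusted p under 0.05 with a mean of at least 1 CPM. Alternatives were the exact test of edgeR, DESeq2 1.42.0, RLE size factors, library totals, other filters, a block for replicate number, omission of each library, a change of more than 2-fold and, chosen after seeing the data, omission of organelle genes. Tables were made with pandas 2.3.3 and numpy 2.4.6 in Python 3.11.15, and plots with matplotlib 3.10.9.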

Additional observations from a re-analysis of the deposited data

How the results depend on the processing

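The count of 7 genes lower and 2 higher was 7 and 2 with the exact test and with organelle genes left out, 8 and 2 with DESeq2, and 5 and 2 with RLE size factors. It was 0 and 5 with library totals, 7 and 1 without the filter, 4 and 3 with at least 10 counts in every library, and 0 and 0 when a change of more than 2-fold was also required. Omission of 1 library gave 0 to 5 lower and 0 to 2 higher, and over all genes 965 to 4639 calls in place of 4701. Whether replicate numbers pair the libraries cannot be settled from 3 libraries per genotype. Same-numbered libraries had correlations of their deviations of -0.098, -0.024 and 0.207, only replicate 3 correlated best with its own number, and a block for the replicate number gave 3 lower and 1 higher. With library totals, 25.9% of all calls were lower, in place of 58.2%, and without the filter 70.1%.

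The median log2 fold changes of G1 and S entry, S phase and replication, G2 and mitosis, CDK inhibitors and growth regulators were 0.25, 0.11, 0.00063, 0.21 and 0.79 with library totals. Without the filter they were -0.10, -0.23 and -0.34 for the first 3, and with at least 10 counts in every library -0.063, -0.17 and 0.13 for S phase, G2 and mitosis, and CDK inhibitors. Fits without 1 library ranged from -0.15 to 0.012 for G1 and S entry, from -0.20 to -0.10 for S phase, from -0.31 to -0.22 for G2 and mitosis, from -0.14 to 0.10 for the inhibitors and from 0.39 to 0.63 for the growth regulators. The value of *SMR5* turned to 0.33 without wild-type replicate 2 and 0.10 without *ref4-3* replicate 3, and lay between -0.55 and 0.33 over all such fits. The 9 adjusted p lay between 0.0169 and 0.0491, close to the threshold, at 3 libraries per genotype. Beyond the shift in scale with library totals and the fewer libraries or genes in the other fits, the cause was not tested.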
